A study of Mus musculus with 6 samples.

Results

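Semaphorins are membrane-bound or secreted ligands and plexins are their main receptors, and 8 mouse genes of these families are described here in germinal center (GC) B cells, namely Sema4a, Sema4b, Sema4c, Sema4d, Sema7a, Plxnb2, Plxnc1 and Plxnd1. They were chosen by name, with earlier results of these data known, and found by Entrez identifier among the 27179 genes of the deposited count table. All 8 were listed there, and 5 of the 8 were abundant enough to be tested among 11005 genes. The families list 20 semaphorin and 9 plexin genes in all, and the other members are given below by their counts.

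The study compared GC B cells of wild-type (WT) mice with those of mice lacking the receptor for interleukin 21 (Il21r-/-), both on the C57BL/6 background. By the general statement of the methods, the animals were Ly5.1 hosts that had been irradiated and given bone marrow of 1 of the genotypes, which the labels do not mention. All mice received the hapten-carrier antigen NP-KLH in alum, and NP-binding IgG1+ B cells of GC phenotype (B220+ CD38-, without IgM, IgD, CD138 and Gr1) were sorted from spleen 7, 10 or 14 days later. Each genotype gave 1 RNA-seq library on each day, so there were 3 libraries per genotype and no replicate within a day. The labels tie each library to an independent mouse, whereas the paper describes several mice of each genotype, also for day 7, and more than 1 immunization, so these sources do not settle how many mice a library stands for, and p-values measure the spread between these 6 libraries. The ages of the mice are not given in the labels. The paper gives only a range of ages over all its experiments, with groups matched for age and sex and both sexes used. The total count of a library was 27435124 for WT against 23938323 for Il21r-/- at day 7, 23827410 against 25664411 at day 10, and 21353438 against 26200417 at day 14.

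Plexins carry a GTPase-activating domain in their cytoplasmic part, and semaphorin binding alters small GTPases of the Ras and Rap families and with them the actin skeleton, adhesion and movement of the cell. Class 4 semaphorins are membrane proteins that bind chiefly plexins of class B, and Sema7a is held in the membrane by a lipid anchor and binds Plxnc1 and integrins. In lymphocytes Sema4d is best known as CD100, which binds the B cell coreceptor CD72, and Plxnb2 of GC B cells is known as a partner of Sema4c on follicular helper T cells.

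The targeted gene, Il21r, was measured first as a check of the genotype labels. Levels within a gene are given as CPM, the counts scaled to a common library size after TMM normalization, and Il21r stood at 343 CPM in WT against 105 in Il21r-/- at day 7, 261 against 127 at day 10, and 245 against 112 at day 14. The lowest WT library lay above the highest Il21r-/- library. Over 3 days the log2 fold change, given throughout as WT minus Il21r-/-, was 1.29 (standard error (SE) 0.13, adjusted p = 0.00137 in edgeR's quasi-likelihood test with Benjamini-Hochberg adjustment over all 11005 genes).

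The cell type label was compared with marker lists. All 13 genes of a GC B cell list were above the expression limit in the data, and its most abundant gene, Ms4a1, which encodes CD20, ranged from 3136 to 4809 CPM. Of 11 T cell genes, 8 stayed under 1 CPM in every library, among them Cd3d, Cd3e, Cd3g, Cd4, Cd8a and Trac, while Lck, the most abundant of the list, ranged from 80.2 to 119.96 CPM. Of the endothelial and stromal list, 9 of the 10 genes found stayed under 1 CPM, Tek, Cxcl13, Col1a1 and Col3a1 had no count in any library, and Pecam1 ranged from 23.8 to 65.0 CPM. Of 12 myeloid and dendritic cell genes, 7 stayed under 1 CPM, Mpo had no count, and the most abundant, Cd68, ranged from 5.89 to 11 CPM. Of 8 erythroid and platelet genes found, 5 stayed under 1 CPM and Hba-a2 led with 2.42 to 21.3 CPM. The plasma cell list was led by Jchain at 2266 to 3289 CPM, with Sdc1, which encodes CD138, and Tnfrsf17 under 1 CPM in every library.

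The levels of the 8 genes were compared with each other in RPKM, which scales reads to gene length and library size. Sema4d was highest, at 87.5 ± 21.4 RPKM (SD, n = 6 libraries of both genotypes), followed by Sema7a at 59.4 ± 12.2, Plxnb2 at 34.1 ± 11.6, Plxnc1 at 11.2 ± 1.48 and Sema4b at 5.92 ± 1.83 RPKM. Within libraries Sema4d exceeded Sema7a in 6 of 6 and Sema7a exceeded Plxnb2 in 5 of 6, the exception being WT on day 10, where Plxnb2 had 51.0 and Sema7a 47.4 RPKM. A gap of 37.1-fold separated Sema4b from Sema4a, at 0.160 ± 0.0317 RPKM. Plxnd1 had 0.0646 ± 0.0271 RPKM, and Sema4c 1 count in all 6 libraries together. These 3 genes, Sema4a, Plxnd1 and Sema4c, fell under the expression limit, an average log2 CPM of 0.

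**Figure D1:**
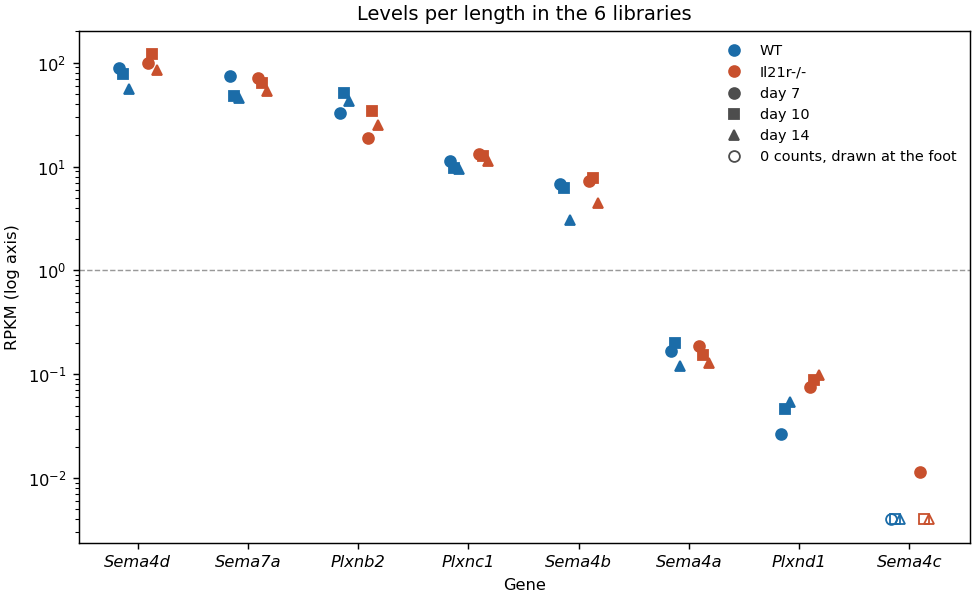
Level of each of the 8 genes in RPKM (vertical log axis), ordered by mean, with 1 symbol per library; color gives the genotype and shape the day, the dashed line marks 1 RPKM, and open symbols at the foot stand for libraries with 0 counts. The genes Sema4d, Sema7a, Plxnb2, Plxnc1 and Sema4b lie above 1 RPKM in all 6 libraries and Sema4a, Plxnd1 and Sema4c below it in all 6.

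Among the ligands, Sema4d (Entrez 20354, chr13:51685529-51793678 of GRCm38.p6) stood at 386 CPM in WT against 434 in Il21r-/- at day 7. On day 10 it had 341 CPM in WT and 525 in Il21r-/-, and on day 14 it had 245 CPM in WT and 369 in Il21r-/-. Sema4d was thus higher in Il21r-/- than in WT on 3 of 3 days, the highest library was Il21r-/- on day 10 and the lowest WT on day 14, and the ranges of the genotypes overlapped because WT on day 7 lay above Il21r-/- on day 14. The difference over 3 days was -0.47 on the log2 scale (SE 0.14), a level 1.39-fold higher in Il21r-/-, and did not pass the threshold of 0.05 (adjusted p = 0.084, edgeR quasi-likelihood test). The log2 difference was -0.17 (SE 0.26) on day 7, -0.62 (SE 0.26) on day 10 and -0.59 (SE 0.26) on day 14, each from 1 library per genotype. As these are bulk libraries, fewer cells of a type and less RNA per cell cannot be told apart.

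Libraries of the same day can be treated as pairs. A fit with day as a replicate block, which takes the mean of each day out of the error, called the Sema4d difference (log2 -0.46, SE 0.08, adjusted p = 0.000251, edgeR quasi-likelihood test). Over all 13 alternative settings the log2 difference of Sema4d ran from -0.62 to -0.34 and its adjusted p from 0.000251 to 0.492. With 1 library left out, it passed the threshold without Il21r-/- of day 7 (adjusted p = 0.0318) and without Il21r-/- of day 10 (adjusted p = 0.032), both in edgeR's quasi-likelihood test. These fits called 4.01% and 19.7% of all genes tested.

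Sema7a (Entrez 20361, chr9:57939596-57962865) stood at 245 CPM in WT against 232 in Il21r-/- at day 7. It stood at 155 CPM in WT against 208 in Il21r-/- at day 10, and 151 against 176 CPM at day 14. WT was the higher genotype on day 7 and the lower on days 10 and 14, and the ranges overlapped. Over 3 days the log2 difference was -0.18 (SE 0.12, adjusted p = 0.453, edgeR quasi-likelihood test), and with day as a replicate block it was -0.19 (SE 0.09, adjusted p = 0.127). Sema7a passed the threshold under none of the 13 alternative settings, where its log2 difference ran from -0.34 to -0.07 and its adjusted p from 0.123 to 0.899.

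Sema4b (Entrez 20352, chr7:80186870-80226646), another transmembrane class 4 ligand, stood at 26.8 CPM in WT against 28.9 in Il21r-/- at day 7. It stood at 24.3 CPM in WT against 30.7 in Il21r-/- at day 10, and 11.9 against 17.5 CPM at day 14. Both libraries of day 14 lay below the other 4 libraries. Sema4b was the 1 of the 5 tested genes whose trend with day passed the threshold with all libraries, and it fell by 0.14 per day on the log2 scale (SE 0.03, adjusted p = 0.0469, edgeR quasi-likelihood test), beside 4.43% of all genes tested. That call held in 2 of the 6 fits with 1 library left out, those without WT of day 10 and without Il21r-/- of day 10 (where Sema4d and Sema7a were called as well). For the trend these fits called 3.65% and 19.8% of all genes tested. The adjusted p of the Sema4b trend over its 8 alternatives ran from 0.00242 to 0.453. Its genotype difference over 3 days was -0.33 (log2, SE 0.17, adjusted p = 0.315), and -0.32 (SE 0.11, adjusted p = 0.034) with day as a replicate block, both in edgeR's quasi-likelihood test. Over 13 alternatives in DESeq2 and edgeR the genotype difference of Sema4b ran from -0.50 to -0.16 and its adjusted p from 0.0313 to 0.817. It was called in 2 of them.

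Sema4a, a class 4 semaphorin known from T cell priming by dendritic cells, gave 16 counts in WT against 15 in Il21r-/- at day 7, 17 against 14 at day 10, and 9 against 11 at day 14. Its summed counts of 42 in WT and 40 in Il21r-/- give a WT to Il21r-/- ratio of 1.06 at equal depth, with a 95% exact interval from 0.672 to 1.68. No difference was detectable at this depth. Sema4c had its 1 count in Il21r-/- on day 7, and 3 counts over all 6 libraries would correspond to 0.00531 RPKM. Intervals and such limits cover counting error only.

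Among the receptors, Plxnb2 (Entrez 140570, chr15:89155546-89182018) stood at 216 CPM in WT against 123 in Il21r-/- at day 7. It stood at 335 CPM in WT against 224 in Il21r-/- at day 10, and 279.6 against 165 CPM at day 14. Plxnb2 was higher in WT on 3 of 3 days and was highest on day 10 in both genotypes, and the ranges overlapped only because Il21r-/- on day 10 lay just above WT on day 7. The log2 difference over 3 days was 0.70 (SE 0.21), a level 1.62-fold higher in WT, and did not pass the threshold (adjusted p = 0.095, edgeR quasi-likelihood test). On the single days it was 0.81 on day 7, 0.58 on day 10 and 0.76 on day 14 (log2, SE 0.38 on each day).

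With day as a replicate block, Plxnb2 had the smallest adjusted p of the 5 genes (log2 0.71, SE 0.08, adjusted p = 3.56e-08, edgeR quasi-likelihood test). Over its 13 alternatives the log2 difference ran from 0.52 to 0.96 and the adjusted p from 3.09e-08 to 0.31. Without Il21r-/- of day 10 it was 0.96 (adjusted p = 0.00572, edgeR quasi-likelihood test), in a fit that called 19.7% of all genes tested. Plxnb2 passed in none of the other 5 fits with 1 library left out. Plxnb2 was the only 1 of the 5 tested genes that was higher in WT over 3 days, with the linear effect of day and under all 13 alternatives.

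Plxnc1 (Entrez 54712, chr10:94790866-94945015), a receptor of Sema7a, stood at 78.9 CPM in WT against 92.9 in Il21r-/- at day 7. It stood at 69.0 CPM in WT against 88.6 in Il21r-/- at day 10, and 66.3 against 79.2 CPM at day 14. All 3 Il21r-/- libraries lay above all 3 WT libraries, the nearest being Il21r-/- on day 14 and WT on day 7. The log2 difference over 3 days was small, -0.28 (SE 0.09, adjusted p = 0.114), a level 1.22-fold higher in Il21r-/-, and -0.28 (SE 0.08, adjusted p = 0.0118) with day as a replicate block, both in edgeR's quasi-likelihood test. Over the 13 alternatives the adjusted p of Plxnc1 ran from 0.0118 to 0.466, and of the fits with 1 library left out only that without Il21r-/- of day 10 passed (adjusted p = 0.0463, edgeR quasi-likelihood test). That fit called 19.7% of all genes tested.

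Plxnd1, a plexin that controls thymocyte and vessel positioning, gave 5 counts in WT against 12 in Il21r-/- at day 7, 8 against 16 at day 10, and 8 against 17 at day 14. Each Il21r-/- library had more counts than each WT library. The summed counts were 21 in WT and 45 in Il21r-/-, a ratio of 2.12 for Il21r-/- over WT at equal depth with a 95% exact interval from 1.24 to 3.74, which covers counting error and not the spread between mice. At 0.0263 to 0.0981 RPKM the gene stayed below the expression limit. In the fits without a filter on low counts, where all 8 genes were tested, it was called neither over 3 days nor on a single day.

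**Figure D2:**
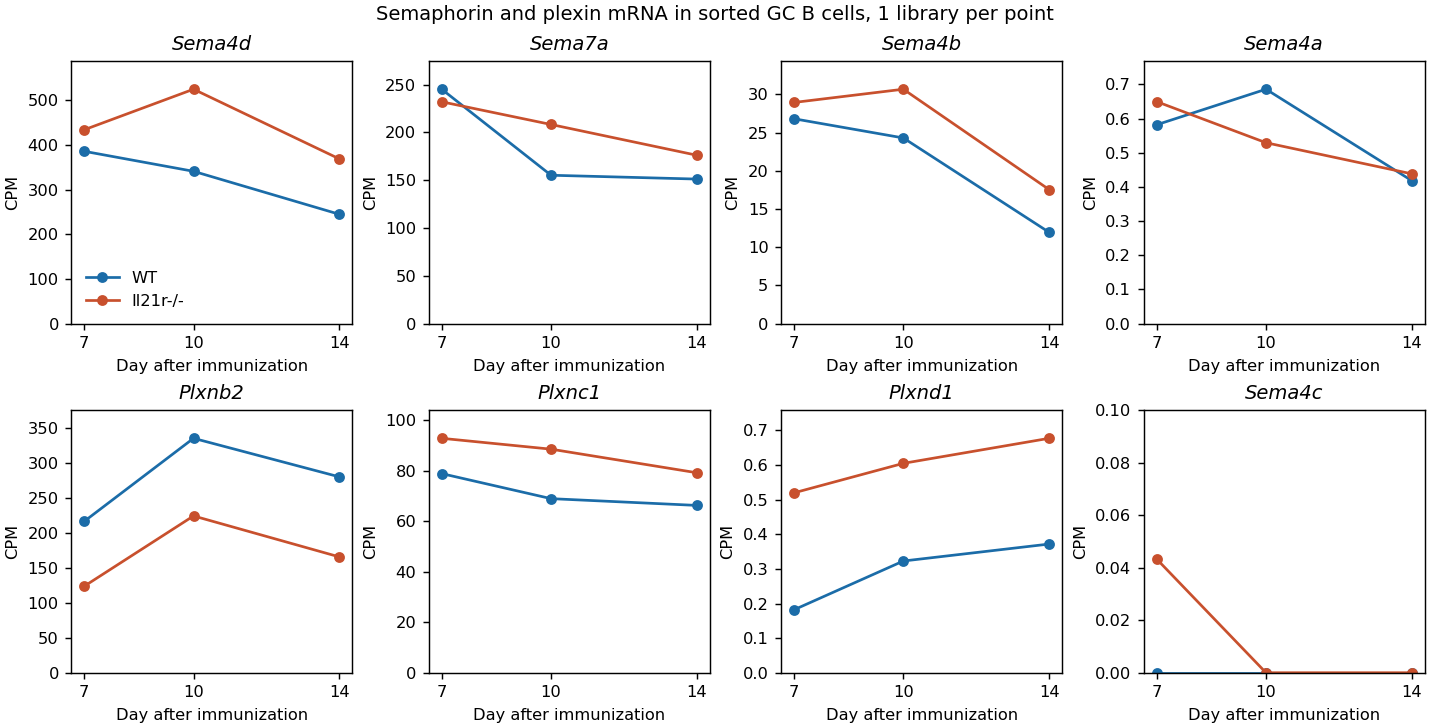
Expression of each of the 8 genes in CPM (vertical axes start at 0 and differ between panels) against the day after immunization, with 1 library per point and lines joining the libraries of a genotype. Sema4d, Sema4b, Plxnc1 and Plxnd1 lie higher in Il21r-/- on all 3 days, Plxnb2 lies higher in WT on all 3 days, and Sema7a changes order after day 7.

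Counted together, 0 of the 5 tested genes passed the threshold over 3 days, beside 5.92% of all genes tested, 1.4% higher in WT and 4.52% higher in Il21r-/-. At an unadjusted p under 0.05 in edgeR's quasi-likelihood test 3 of the 5 passed, beside 2356 of the 11005 genes tested, and 2 of the 5, Sema4d and Plxnb2, were called both by DESeq2's Wald test, beside 8.64% of all genes tested, and by edgeR's likelihood ratio test, beside 10.8%. With day as a replicate block 4 of the 5 passed, Plxnb2 higher in WT and Sema4d, Plxnc1 and Sema4b higher in Il21r-/-, beside 22.9% of all genes tested. The median log2 difference of the 5 genes was -0.28, beside -0.01 for all genes tested.

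On the single days, edgeR's likelihood ratio test called 0 of the 5 genes on day 7, beside 1.07% of all genes tested, 0 on day 10, beside 3.1%, and 0 on day 14, beside 3.28%. At an unadjusted p under 0.05, 1 of the 5 passed on day 7, 1 on day 10 and 2 on day 14, beside 606, 1190 and 1330 of the 11005 genes in the same order. With dispersions from a fit with day as a replicate block, 1 of the 5 was called on day 7 (Plxnb2), 2 on day 10 and 2 on day 14 (Plxnb2 and Sema4d on both), beside 2.75%, 7.47% and 9.59% of all genes tested. The trend with day differed between the genotypes for 0 of the 5 genes and for 0% of all genes tested in edgeR's quasi-likelihood test, where 118 of 11005 genes had an unadjusted p under 0.05. With day as a replicate block, an alternative chosen after seeing the data, it differed for 0 of the 5 and for 0.282% of all genes tested.

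**Figure D3:**
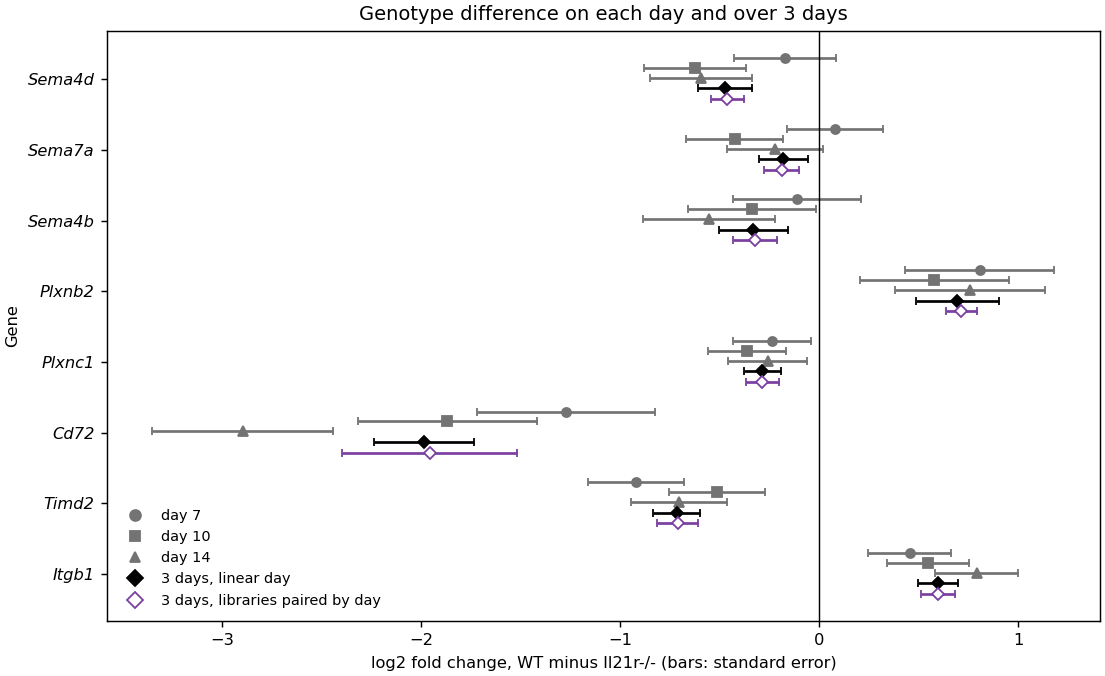
Log2 fold change (WT minus Il21r-/-, horizontal axis) of the 5 tested semaphorin and plexin genes and of 3 other receptors on each day and over 3 days, with SE as bars; filled diamonds are the fit with a linear effect of day and open diamonds the fit that pairs libraries by day. Plxnb2 and Itgb1 lie to the right of 0 on every day, Sema4d, Sema4b, Plxnc1, Cd72 and Timd2 to the left, and the SE of Plxnb2 is 0.21 in the first fit and 0.08 in the paired fit.

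Ligand and receptor levels were set side by side as RPKM ratios within each library. Sema4d exceeded Plxnb2 2.68-fold in WT against 5.27-fold in Il21r-/- at day 7, 1.53-fold against 3.51-fold at day 10, and 1.31-fold against 3.34-fold at day 14. The ratio was higher in Il21r-/- on each day, as Sema4d was higher and Plxnb2 lower there. Sema7a exceeded Plxnc1 6.68-fold in WT against 5.37-fold in Il21r-/- at day 7, 4.84-fold against 5.06-fold at day 10, and 4.91-fold against 4.78-fold at day 14, with no constant order of the genotypes. Against the other known partners the order was constant. Sema4d over Cd72 was lower in Il21r-/-, with ratios of 2.45 in WT against 1.14 at day 7, 4.48 against 1.89 at day 10, and 6.90 against 1.40 at day 14, the reverse of Sema4d over Plxnb2. Sema7a over the integrin subunit Itgb1 was higher in Il21r-/-, with ratios of 2.34 in WT against 3.04 at day 7, 1.52 against 2.98 at day 10, and 1.38 against 2.79 at day 14. These ratios were not tested, and those over Cd72 rest on counts of a gene that shares exon bases with another, as given below.

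Receptors of semaphorins outside the plexin family were taken from a list of 9 genes, of which 3 were tested, and all 3 passed the threshold over 3 days, 2 higher in Il21r-/- and 1 higher in WT, beside 5.92% of all genes tested. The other 6, Nrp1, Nrp2, Itga1, Met, Mst1r and Erbb2, stayed under 1 CPM in every library, with at most 27 counts in all. That maximum was reached by Nrp2, with 2 counts in WT and 25 in Il21r-/-. The ratio was 12.4 for Il21r-/- over WT at equal depth, with a 95% exact interval from 3.08 to 108 that covers counting error only. Nrp2 was not tested, and the spread of its counts over single libraries is not given here. The untested plexins Plxnb1 and Plxna1 had ratios of 1.24 (interval 0.540 to 2.89, 27 counts) and 1.20 (0.669 to 2.19, 51 counts). Nrp1 had 3 counts in WT and 4 in Il21r-/-. Cd72, an inhibitory B cell receptor that binds Sema4d, stood at 54.0 CPM in WT against 130.6 in Il21r-/- at day 7. It had 26.1 against 95.5 CPM at day 10, and 12.2 against 90.6 CPM at day 14. The lowest Il21r-/- library lay above the highest WT library, and the log2 difference was -1.98 over 3 days (SE 0.25, adjusted p = 0.00417, edgeR quasi-likelihood test). Under the replicate block this call was lost (log2 -1.96, SE 0.44, adjusted p = 0.129), and it was also lost without a filter on low counts (adjusted p = 0.0834) and without Il21r-/- of day 10 (adjusted p = 0.115), with adjusted p from 3.49e-11 to 0.132 over 13 alternatives in DESeq2 and edgeR.

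The Cd72 difference was -1.27 (log2, SE 0.45) on day 7, -1.87 on day 10 and -2.89 on day 14, and edgeR's likelihood ratio test called days 10 (adjusted p = 0.00382) and 14 (adjusted p = 7.54e-07). With dispersions from the fit with day as a replicate block, the call on day 10 was lost (adjusted p = 0.135) and that on day 14 held (adjusted p = 0.00709). Exons of Tesk1, a kinase gene, overlap 41.6% of the annotated exon bases of Cd72, and the library kit does not mark strand, so reads of the overlap cannot be assigned to 1 of the genes. Tesk1 itself stood at 33.5 CPM in WT against 49.0 in Il21r-/- at day 7, 24.6 against 52.8 at day 10, and 13.1 against 35.9 at day 14, and its log2 difference over 3 days was -1.03 (SE 0.17, adjusted p = 0.0117, edgeR quasi-likelihood test). Tesk1 was looked up after the overlap was seen. No exon base of Sema4b, Sema4d, Sema7a or Plxnb2 overlapped another gene, and 1.38% of those of Plxnc1 did.

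Timd2, a receptor of Sema4a and of ferritin, stood at 21.6 CPM in WT against 40.8 in Il21r-/- at day 7. It had 26.0 against 37.1 CPM at day 10, and 31.0 against 50.4 CPM at day 14. The genotypes did not overlap, and the log2 difference was -0.72 over 3 days (SE 0.12, adjusted p = 0.0112, edgeR quasi-likelihood test), which was called in 10 of 13 alternatives, with adjusted p from 3.73e-06 to 0.104. On day 7 alone edgeR's likelihood ratio test called it too (log2 -0.92, SE 0.24, adjusted p = 0.0197, from 0.000186 to 0.108 over 9 alternatives). The effect over 3 days was not called without WT of day 7 (adjusted p = 0.0649), WT of day 14 (0.104) or Il21r-/- of day 14 (0.0668). Itgb1, the integrin subunit through which Sema7a acts on monocytes, stood at 133.9 CPM in WT against 97.6 in Il21r-/- at day 7. It had 131 against 89.6 CPM at day 10, and 140.1 against 80.8 CPM at day 14. Itgb1 was higher in all WT libraries than in all Il21r-/- libraries, by 0.60 on the log2 scale (SE 0.10, adjusted p = 0.0112, edgeR quasi-likelihood test), and was called in 11 of 13 alternatives, with adjusted p from 2.72e-06 to 0.148, but not without WT of day 14 (0.148) or Il21r-/- of day 14 (0.0883).

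Of the 20 semaphorins, 6 were tested, 3 reached 1 RPKM in any library (Sema4d, Sema7a and Sema4b), and 4 had no count in any library. Of the 9 plexins, 3 were tested, 2 reached 1 RPKM, and 1, Plxna4, had no count. The only 1 of these 9 tested genes that passed over 3 days, beside 5.92% of all genes tested, was Sema6b, a ligand of class A plexins, at low counts. It had 38 counts in WT against 51 in Il21r-/- at day 7, 32 against 75 at day 10, and 23 against 64 at day 14. Every Il21r-/- library lay above every WT library in CPM, and the log2 difference was -1.02 (SE 0.23, adjusted p = 0.0393, edgeR quasi-likelihood test), called in 7 of 13 alternatives with adjusted p from 0.00207 to 0.266, and in 1 of the 6 fits with 1 library left out, that without Il21r-/- of day 10. That fit called 19.7% of all genes tested.

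Of 43 genes of plexin signalling, 32 were tested, 1 was higher in WT over 3 days, 0 were higher in Il21r-/- and 31 did not pass, beside 1.4% of all genes tested that were higher in WT and 4.52% in Il21r-/-. The median log2 difference of the 32 was 0.01, beside -0.01 for all genes tested. The list was led by Cfl1, the actin-severing protein cofilin, at 2550 to 3158 CPM, and the GTPases Rhoa, Rac1, Cdc42, Rap1a and Rap1b were all tested and did not pass. The 1 gene that passed was Fes, a tyrosine kinase that binds plexins and acts on the actin and microtubule skeleton. Fes stood at 31.4 CPM in WT against 19.8 in Il21r-/- at day 7, 28.2 against 13.5 at day 10, and 18.3 against 3.39 at day 14. Il21r-/- on day 14 was far the lowest library, and the ranges overlapped. The log2 difference was 1.30 over 3 days (SE 0.28, adjusted p = 0.0358, edgeR quasi-likelihood test) and 2.43 on day 14 (SE 0.53, adjusted p = 0.000896, edgeR likelihood ratio test). With dispersions from the replicate block the call on day 14 was lost (SE 0.83, adjusted p = 0.0526). Under the replicate block the call over 3 days was lost too (log2 1.27, SE 0.46, adjusted p = 0.233), and it held in 6 of 13 alternatives, with adjusted p from 1.26e-05 to 0.241. Of the 6 fits with 1 library left out it held without WT of day 7 and without Il21r-/- of day 14.

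The genes most like Sema4d and Plxnb2, the tested pair with the smallest p over 3 days, were found by Pearson's r of log2 CPM over the 6 libraries among 8533 other genes. For Sema4d these were Fyn, a Src family kinase that is also on the plexin signalling list (r = 0.998), Acvr1b, an activin receptor (r = 0.997), and Nudt3, a phosphohydrolase (r = 0.993). Fyn stood at 74.7 CPM in WT against 82.8 in Il21r-/- at day 7, 70.0 against 94.1 at day 10, and 52.7 against 72.8 at day 14. For Plxnb2 they were Mthfd1l, an enzyme of mitochondrial folate metabolism (r = 0.998), Uck2, a uridine-cytidine kinase (r = 0.995), and Snrnp70, a splicing protein (r = 0.994). With 6 libraries that share 3 days and 2 genotypes such values are frequent, and 322 genes had an r over 0.9 with Sema4d and 425 with Plxnb2.

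Promoter sequences are shown because 4 of the 5 tested genes differed between genotypes in the paired fit, not all in 1 direction. RefSeq promoter windows of GRCm38.p6, from 250 bases before to 50 after an annotated start, were matched for 8 of 8 genes, with 16 windows in all. Motifs were searched on both strands, as TTC and GAA with 2, 3 or 4 bases of any kind between them (TTCNNGAA for the first) for STAT proteins, the transcription factors that act below the interleukin 21 receptor, and as GGG and CC with 5 such bases between them for NF-kB. STAT motifs are held by 8.52%, 8.3% and 6.95% of all 32851 windows in that order, and the NF-kB motif by 50.8%. A STAT motif was found in 1 of the 8 genes, Sema4b, and the NF-kB motif in 12 of the 16 windows and 7 of the 8 genes, all but Plxnc1. The shares given are of windows, so only the 12 of 16 (75%) has a like value beside it. No share of all genes, and none for the STAT spacings together, was computed. A match is a run of letters and no evidence of binding.

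The 30 bases around the STAT match of Sema4b (chr7:80186783-80186812, plus strand) are shown with the match in capitals. The match starts 76 bases before the annotated start and overlaps no NF-kB match. An exon of Sema4b was recorded for the 250 bases before this start, although the gene span given above begins only at the start.
Sema4b: cctttggacaaTTCCCGAAaacgcgagcag

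The 250 bases before the start are shown for the other tested genes, each at a window where no annotated exon was recorded for these bases. In this way the gene higher in WT, Plxnb2, can be set beside those that were not. NF-kB matches that lie wholly in these bases are in capitals. A second match of the Plxnb2 window crosses its start and is not marked. They are Plxnb2 (chr15:89180789-89181038, minus strand, 1 of 2 such windows, of which the other has 6 NF-kB matches and 63.6% G and C), Plxnc1 (chr10:94944846-94945095, minus strand), Sema4d (chr13:51739447-51739696, minus strand, 1 of its 3 windows) and Sema7a (chr9:57939862-57940111, plus strand). The gene spans given above cover the bases shown for Plxnb2, Sema4d and Sema7a, and the span of Plxnc1 ends inside its own. An exon overlap of the Plxnc1 bases is therefore not excluded.
Plxnb2: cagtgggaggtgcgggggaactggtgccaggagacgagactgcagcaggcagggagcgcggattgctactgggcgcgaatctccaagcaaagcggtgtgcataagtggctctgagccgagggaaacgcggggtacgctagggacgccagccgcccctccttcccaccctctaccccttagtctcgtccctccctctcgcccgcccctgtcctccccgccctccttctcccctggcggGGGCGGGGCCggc
Plxnc1: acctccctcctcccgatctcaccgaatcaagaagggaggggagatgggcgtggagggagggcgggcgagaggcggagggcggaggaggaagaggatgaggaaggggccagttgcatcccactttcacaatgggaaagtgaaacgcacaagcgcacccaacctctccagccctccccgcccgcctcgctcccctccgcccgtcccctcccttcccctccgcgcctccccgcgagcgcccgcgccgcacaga
Sema4d: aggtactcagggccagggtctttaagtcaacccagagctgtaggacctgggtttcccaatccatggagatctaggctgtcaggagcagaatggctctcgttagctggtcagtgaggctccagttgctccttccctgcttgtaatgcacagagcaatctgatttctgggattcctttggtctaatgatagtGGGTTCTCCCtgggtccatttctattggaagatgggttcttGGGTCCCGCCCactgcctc
Sema7a: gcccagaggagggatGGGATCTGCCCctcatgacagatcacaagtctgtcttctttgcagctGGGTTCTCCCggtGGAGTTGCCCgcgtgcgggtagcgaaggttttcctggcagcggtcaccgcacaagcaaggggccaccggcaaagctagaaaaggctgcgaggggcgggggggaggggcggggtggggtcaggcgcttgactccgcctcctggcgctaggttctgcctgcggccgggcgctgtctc
The share of G and C in these 250 bases was 69.2% for Plxnb2, 68.8% for Plxnc1, 66.4% for Sema7a and 52.4% for Sema4d, and these windows held 20, 22, 17 and 2 CpG dinucleotides in the same order. All windows of Sema4d lie inside its gene span, far from the end where that span starts on the minus strand. Bases at that end were not examined, so the Sema4d values do not describe them.

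Markers of other B cell states moved with genotype in the same libraries. A list of 10 genes of B cells outside the GC, led by Fcer2a, summed to 766 CPM in WT against 1247 in Il21r-/- at day 7. It summed to 398 against 1145 CPM at day 10, and to 317 against 754 CPM at day 14. Of its 10 genes 7 were higher in Il21r-/- over 3 days and 0 in WT, beside 4.52% and 1.4% of all genes tested, with a median log2 difference of -1.32. Ighd, which encodes the IgD that the sort removed, ranged from 0.981 to 1.66 CPM. The light zone list of 15 genes, led by Cd83, summed to 1416 CPM in WT against 2067 in Il21r-/- at day 7, to 1073 against 1916 at day 10, and to 1244 against 2319.5 at day 14. Of its 15 genes 8 were higher in Il21r-/- and 0 in WT, beside the same shares of all genes (median log2 difference -0.67), whereas of the 8 dark zone genes 1 was higher in Il21r-/- and 7 did not pass (median 0.05). The called light zone genes include the related Bcl2a1a, Bcl2a1b and Bcl2a1d, and how reads shared between these were counted is not known. They also include Ccr6, which is among the called genes of the list outside the GC as well. The GC B cell list summed to 12087 CPM in WT against 13711 in Il21r-/- at day 7, with 1 of its 13 genes, Pax5, higher in Il21r-/- over 3 days. Of the lists of other cell types, Cd5 (log2 -2.10, SE 0.32, adjusted p = 0.00702, at 0.325 to 3.42 CPM), Cd68 (log2 -0.62, SE 0.15, adjusted p = 0.0449), Pecam1 (log2 -0.60, SE 0.11, adjusted p = 0.0177) and Xbp1 of the plasma cell list (log2 -0.39, SE 0.09, adjusted p = 0.0396) were higher in Il21r-/- over 3 days, and Prdm1 of the plasma cell list was higher in WT (log2 1.64, SE 0.33, adjusted p = 0.0216, at 0.26 to 1.82 CPM), all in edgeR's quasi-likelihood test. The T cell list summed to 88.3 CPM in WT against 88.1 in Il21r-/- at day 7, 112 against 91.8 at day 10, and 122 against 120 at day 14. The myeloid and dendritic cell list summed to 14.98 against 20.27 CPM, 9.12 against 12.7 and 13.2 against 17.6 in the same order, the endothelial and stromal list to 50.2 against 66.3, 33.3 against 58.5 and 24.2 against 36.7, and the plasma cell list to 3840 against 4660, 3553 against 3936 and 4035 against 5222. The part of these shifts in the differences of Sema4d, Sema4b, Plxnc1, Plxnb2, Cd72 and Timd2 was not tested.

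**Figure D4:**
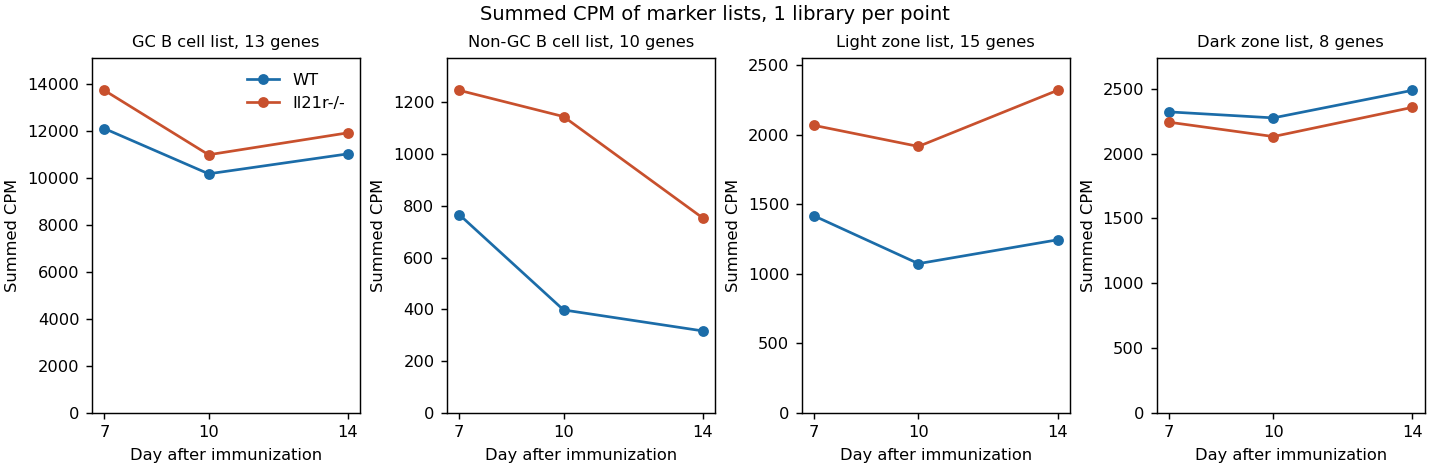
Summed CPM (vertical axes start at 0) of the GC B cell, non-GC B cell, light zone and dark zone lists against the day after immunization, 1 library per point. The non-GC B cell and light zone sums lie higher in Il21r-/- on all 3 days, and the dark zone sums lie between 2132 and 2489 CPM in all 6 libraries.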

How the data were processed

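RNA of sorted GC B cells was sequenced by the authors as single-end 100-base reads. Per the labels and the study's methods, reads were aligned to mm10, assigned to genes with featureCounts, and technical replicates pooled. The submitters' processing notes name CASAVA 1.8.2. The authors deposited whole-number read counts per gene, unnormalized, and a gene length in bases, another deposited column that served for RPKM. The strand and multi-mapping settings are not given in the sources used here. The series table and the 6 files of single libraries held identical counts. Symbols came from RefSeq (GRCm38.p6) for 25275 of the 27179 Entrez identifiers and from GENCODE for 18.

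Genes with an average log2 CPM under 0, Xist, genes of the Y chromosome and those of Ig variable segments were removed, leaving 11005. With R 4.3.3 and edgeR 4.0.16, dispersions were estimated robustly on genotype plus linear day. Genotype effects per day were tested by likelihood ratio tests, and the effect over 3 days, the trend with day and its difference between genotypes by quasi-likelihood tests, all with Benjamini-Hochberg adjustment at 0.05. Alternatives used DESeq2 1.42.0, other filters, other dispersions and leaving out each library. Python 3.11.15 made the summaries. The procedure was tested on simulated data, and the outcome of that test is not given here.

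After the genotype means were subtracted, libraries of the same day correlated across genes (r = 0.640 for day 7, 0.413 for day 10, 0.645 for day 14). These values still hold any linear effect of day, so they cannot show a pairing beyond it. In the fit with day as a replicate block, the dispersion can be taken from that fit or from genotype plus linear day. Both were run, and the first was chosen after the calls of each had been seen and because its count equalled an earlier result of these data; the second is given with the alternatives.

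All 8 genes were named in every library. Other semaphorins, plexins and receptors were named at 1 RPKM or more in any library or when called over 3 days, signalling genes when called, the 3 genes most like each of the tested pair with the smallest p among genes with an average log2 CPM of at least 3, and of marker lists the most abundant gene, defining markers near 0 and, for other cell types, genes called over 3 days. The ratios of Nrp2, Plxnb1 and Plxna1 were given outside this rule, for low counts. The members and lists were chosen with earlier results of these data known.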

Additional observations from a re-analysis of the deposited data

Results flagged for a closer look

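The genotype difference of 2 genes beside the 8 changed with day by a test of that change itself, in a fit with day as a replicate block that was chosen after seeing the data. For Cd72 the log2 difference (WT minus Il21r-/-) changed by -0.23 per day (SE 0.04, adjusted p = 4.32e-07, edgeR quasi-likelihood test), and for Fes by 0.25 per day (SE 0.05, adjusted p = 0.000136). That fit has 1 residual degree of freedom. Without the block, the same test called neither gene nor any other with all 6 libraries (adjusted p of 1 for both), and with 1 library left out it called Cd72 only without Il21r-/- of day 10 (adjusted p = 0.044) and Fes in none of these fits. The size of the change also depended on single libraries. In the fit without the block and without Il21r-/- of day 14, it was 0.08 per day for Fes (SE 0.08) and -0.14 for Cd72 (SE 0.06). Without Il21r-/- of day 7 it was 0.38 for Fes and -0.29 for Cd72.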

How the results depend on the processing

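With 1 library per genotype and day, each error comes from the scatter of 6 libraries, and the number of genes called depends on how day enters the fit. The log2 difference over 3 days kept its sign for the 5 tested genes in all 13 alternatives, and Sema7a stayed uncalled in all of them, whereas Sema4d, Plxnb2, Plxnc1 and Sema4b were called in some. With day as a replicate block, a paired fit, 2519 genes and 4 of the 5 members were called over 3 days, in place of 651 and 0. When the dispersion of this paired fit came from genotype plus linear day, 2515 genes and 4 members were called for the genotype effect, and a difference between the trends was called for 36 genes, against 31 with the dispersion of the paired fit itself and 0 without the block. The choice between these dispersions was made after seeing the data. Dispersions with day as a replicate block called 303 genes and 1 member for day 7, 822 and 2 for day 10, and 1055 and 2 for day 14, in place of 118, 341 and 361 genes and 0 members. The linear day term kept in the day-wise fit called 722 genes and 1 member on day 10. Over 3 days, 1028 of 16909 genes (6.08%, beside 5.92% with the filter) and 1 of 8 members were called with no filter on low counts, 1193 genes and 2 members by edgeR's likelihood ratio test, and 2 members by DESeq2's Wald test.

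With 1 library left out, counts over 3 days ran from 132 genes (without WT replicate 3, day 14) to 2165 (without Il21r-/- replicate 2, day 10), and from 0 to 3 members. They ran from 104 to 220 genes and 0 members on day 7, from 267 to 418 genes and 0 members on day 10, and from 341 to 704 genes and 0 to 2 members on day 14. For the trend with day they ran from 0 to 2177 genes and 0 to 3 members, and for the difference in trend from 0 to 10 genes and 0 members. Only trend estimates changed sign, all with 1 library left out. The difference in trend per day (log2) then ran from -0.1865 to 0.0614 for Sema4b, from -0.1754 to 0.0271 for Sema4d, from -0.1628 to 0.0555 for Sema7a, from -0.2293 to 0.1621 for Plxnb2, from -0.0315 to 0.0268 for Plxnc1 and from -0.0417 to 0.1305 for Timd2. The trend itself ran from -0.0465 to 0.0169 for Sema6b and from -0.0344 to 0.001 for Itgb1. In each case the cause was not tested.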
